A study of Glycine max with 24 samples.

Results

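Glutathione transferases are enzymes that join the tripeptide glutathione to reactive or foreign molecules, and they were followed here as transcripts in the root tips of soybean (Glycine max). A gene was taken as a member when its symbol in the probe-to-gene table was GST followed by an optional class letter and a number, or when a gene without a name of its own carried such a synonym. Of the 6031 genes that had a probe set of their own, 35 met this rule, 22 by symbol and 13 by synonym. The same pattern finds 65 genes in the soybean assembly Glycine_max_v4.0, so the array reported on part of the family. By class letter there were 25 tau (U), 4 phi (F), 3 lambda (L), 2 zeta (Z) genes and 1 theta (T) gene. GST3 counts as tau through its synonym GSTU53, and GST24 counts as phi through its synonym GSTF10.

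Tau and phi enzymes are the large classes of plants, and they are known for conjugating glutathione to herbicides and to products of lipid oxidation and for strong induction by stress, auxin and pathogens. Lambda enzymes act on thiol bonds and behave more like small redox proteins than like conjugating enzymes, theta enzymes can reduce organic hydroperoxides with glutathione, and zeta enzymes take part in the breakdown of tyrosine. Soybean and some other legumes also make homoglutathione, a glutathione with a different last amino acid. Aluminium (Al) ions stop root growth in acid soils and raise reactive oxygen in root tips, and magnesium (Mg) ions are known to lessen Al injury.

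Root tips of 1 cm came from hydroponic plants of the plant introduction PI 416937, called PI here, and of the cultivar Young. The solution held either 10 µM Al with Mg, or 10 µM Al alone, and tips were taken at 72 or 12 h. The 8 groups were thus PI with Al plus Mg and PI with Al alone at 72 h, Young with Al plus Mg and Young with Al alone at 72 h, and the same 4 at 12 h, each with 3 Affymetrix arrays and 24 in all. All 8 groups received Al, so a difference between treatments compares Al-treated roots with and without added Mg. No group was free of Al, so a changed response to Al and an effect of Mg itself cannot be told apart. The labels used here give no Mg concentration. They call PI sensitive and Young tolerant to Al, although PI 416937 is usually described in the field as the more tolerant of the pair. Titles of arrays with Al alone carry a final letter c that no label explains, and the grouping rests on the descriptions, which give only Al for them. Whether replicates were separate plants, pools or repeat hybridisations is not labelled, so the p-values reflect array-to-array spread, which may be technical.

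All levels are log2 of the deposited intensity, 1 value for each probe set and array, and 1 log2 unit is a doubling of the signal. The background bound of an array was the 99th percentile of 23350 probe sets of other species on it, 2.72 to 3.10, and arrays at or under it are said to be at background. Between 77.8% and 81.4% of the 37593 soybean probe sets lay above this bound in each array. Arrays of a group correlated with each other at 0.981 to 0.994 across probe sets. Of 18 water channel genes, a family abundant in roots, 17 were above background in at least 1 array, with mean levels of up to 15.56 for PIP2-6. Of 16 seed storage and protease inhibitor names, 9 were at background in all arrays, while the trypsin inhibitor names KTI-2 and KTI-3 had mean levels of 14.28 and 13.78 and the protease inhibitor names BBI-1 and BBI-2 of 10.41 and 10.58. The 3 leaf names had mean levels of 5.36 to 13.84, the highest for PSAD, a photosystem I subunit. Replicate 3 of Young with Al alone at 12 h stood apart: without it the Mg comparison in Young at 12 h called 8.29% of all probe sets, against 0.0293% with it. In RNA from whole tips, fewer cells of a type and less RNA per cell cannot be told apart.

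The transferases spanned nearly the whole range of the arrays. The highest was the tau gene GSTU30, whose mean over the 24 arrays was 14.45 and whose arrays ran from 13.87 to 14.98. The highest phi gene was GSTF5 at 12.27, the highest lambda gene GSTL3 at 12.13, the highest zeta gene GSTZ3 at 11.14, and the theta gene GSTT1 was at 9.66. Levels of different genes rest on different probes, so this order describes signal and not the amount of RNA.

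Of the 35 members, 26 were above background in every array, 7 were at background in some arrays and GSTU5 and GSTF11 were at background in all 24. GSTU3 was at background in 23 arrays and GSTU43 in 17. The filter on low signal, a mean of 2.39, left 34 members. Among the 26 genes above background in every array, those of the zeta and theta classes varied little: GSTZ2 varied over 0.79, GSTZ3 over 0.82 and GSTT1 over 0.95 between its lowest and highest array. The most variable was GSTU16, with 7.18 between its lowest and highest array.

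**Figure D1:**
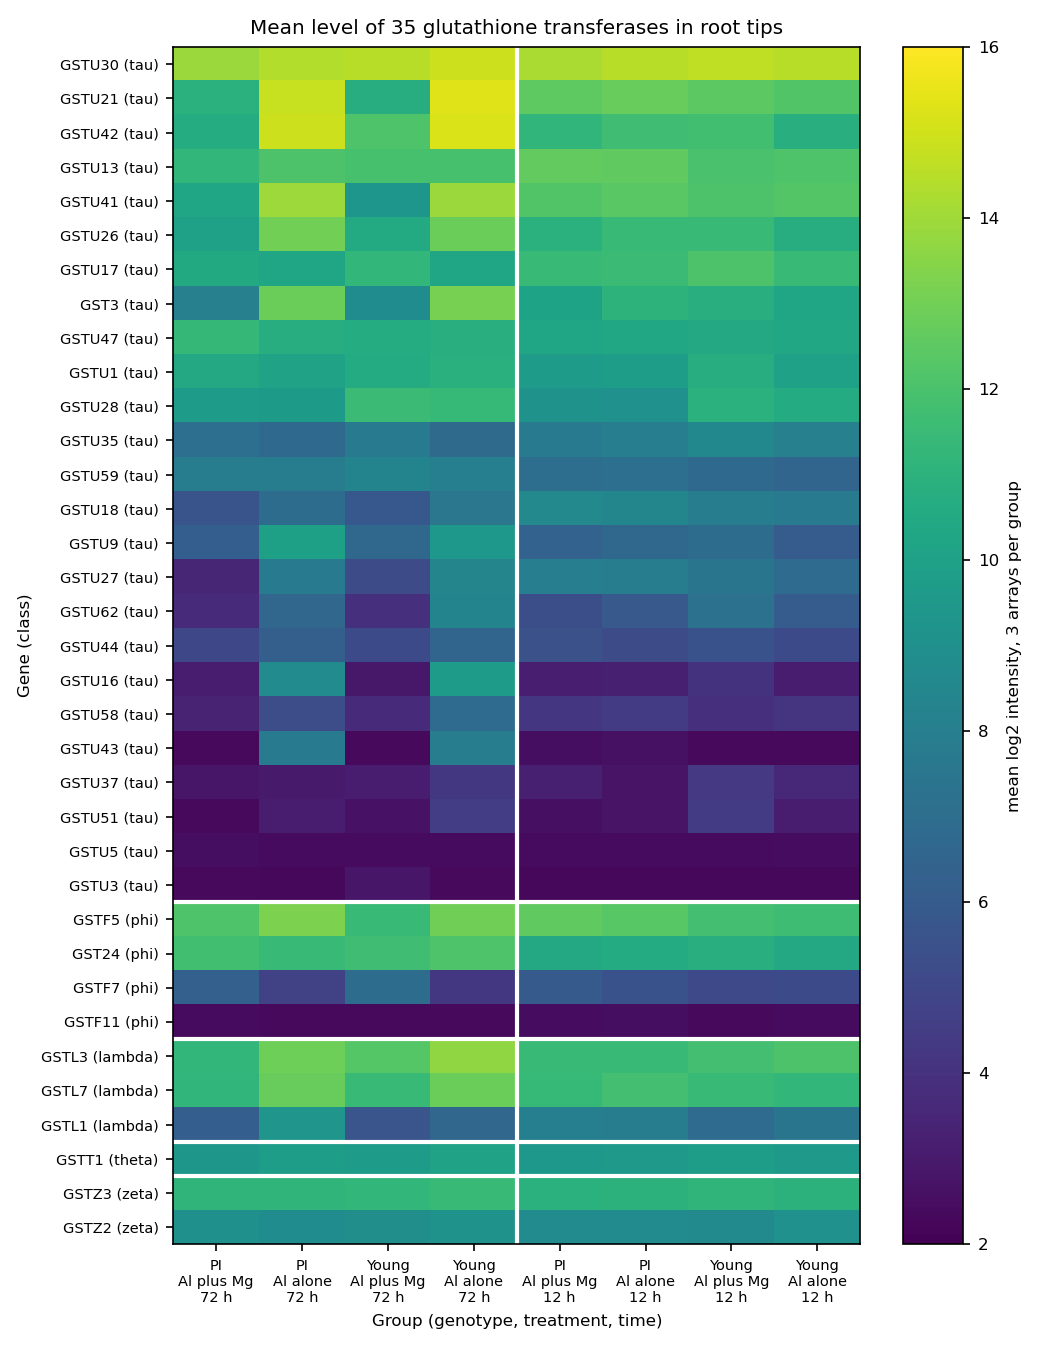
Mean log2 intensity (color scale) of the 35 glutathione transferases (rows, by class and then by mean level) in the 8 groups (columns, 3 arrays each), with 72 h left of 12 h and Al plus Mg left of Al alone. The columns for Al alone at 72 h hold the brightest cells of GSTU21, GSTU42, GSTU41, GST3, GSTU16 and GSTU43, while GSTU30, GSTZ3 and GSTT1 change little along their rows.

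Adding Mg to Al-treated roots went with much lower transferase transcripts at 72 h in both genotypes. In PI, 20 of the 35 members were lower with Al plus Mg than with Al alone and 1 was higher at a limma adjusted p under 0.05, a threshold that 33.7% of all probe sets passed, 13.0% lower and 20.7% higher. In Young, 20 were lower and 3 higher, where 39.3% of all probe sets passed, 16.3% lower and 23.1% higher. The median log2 difference over the members was −0.80 for PI and −1.19 for Young, beside 0.06 for PI and 0.03 for Young over all probe sets. The 2 comparisons share no arrays, and 18 members were lower in both, a result that 10.4% of all probe sets gave.

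The tau class carried the largest falls. In it 15 of 25 members fell in PI and 15 of 25 in Young. GSTU16 had 3.24, 3.04 and 3.06 in PI with Al plus Mg, against 9.18, 8.73 and 8.33 in PI with Al alone at 72 h. Its signal with Mg was thus at the edge of background, with 1 array under the bound, and the groups lay far apart. GSTU16 in Young had 2.92, 2.76 and 2.95 with Al plus Mg and 9.49, 9.94 and 9.57 with Al alone. With the array at background set to its bound in each genotype, PI had a log2 difference of −5.61 and Young one of −6.79 (fitted SE 0.25 in each, limma adjusted p = 6.3e-11 and 2.9e-12).

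GSTU43 was the other gene that came close to an on and off pattern. In PI it had 2.33, 2.37 and 2.35 with Al plus Mg, all at background, against 8.19, 7.80 and 7.09 with Al alone at 72 h. In Young it had 2.35, 2.35 and 2.36 with Al plus Mg, again at background, against 7.86, 7.68 and 8.24 with Al alone. Measured against the bounds of the arrays with Mg, GSTU43 was at least 25.3-fold lower in PI and at least 34.5-fold lower in Young (limma adjusted p = 6.6e-11 and 2.5e-11).

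GST3, GSTU42, GSTU21 and GSTU41 had very high signals with Al alone at 72 h, and their lower signals with Mg were still well above background. GST3 had 8.30, 7.89 and 8.15 in PI with Al plus Mg and 12.89, 13.04 and 12.56 in PI with Al alone at 72 h. In Young it had 8.83, 8.92 and 8.69 with Al plus Mg and 13.08, 13.20 and 13.16 with Al alone. The log2 difference was −4.72 ± 0.47 (SE, limma adjusted p = 8.6e-07) in PI, a 26.3-fold lower signal, and −4.34 ± 0.47 (limma adjusted p = 1.4e-06) in Young. The probe set of GST3 is of a kind that can also take up closely related transcripts, as are those of GSTU42, GSTU41, GSTU28, GSTU30, GSTU17, GSTF5 and GSTL7.

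GSTU42 and GSTU21 with Al alone at 72 h were among the brightest signals of the family. GSTU42 had 10.92, 10.33 and 10.72 in PI with Al plus Mg and 14.97, 15.00 and 14.80 in PI with Al alone. In Young it had 11.88, 12.62 and 11.97 with Al plus Mg and 15.10, 15.23 and 15.22 with Al alone. The arrays with Mg lay below all those with Al alone, and the gene fell by 4.27 ± 0.29 (SE, limma adjusted p = 1.0e-08) in PI, with −3.03 ± 0.29 (3.7e-07) for Young. GSTU21 had 10.67, 11.01 and 11.08 in PI with Al plus Mg and 14.82, 14.84 and 14.79 in PI with Al alone. In Young it had 10.66, 10.54 and 10.92 with Al plus Mg, against 15.19, 15.38 and 15.34 with Al alone. Again no array of one treatment reached the other, and GSTU21 fell by 3.90 ± 0.30 in PI (limma adjusted p = 4.9e-08) and by 4.59 ± 0.30 in Young (5.7e-09) on the log2 scale.

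GSTU41 had 10.52, 10.53 and 9.82 in PI with Al plus Mg and 14.25, 14.12 and 13.50 with Al alone at 72 h. In Young it had 9.22, 9.02 and 9.88 with Al plus Mg and 13.95, 14.16 and 13.59 with Al alone. The treatments did not overlap, with a difference of −3.67 ± 0.56 (SE, limma adjusted p = 8.0e-05) in PI and −4.53 ± 0.56 (6.4e-06) in Young. Another probe set of GSTU41 fell by 3.56 in PI and by 4.15 in Young, and a further one by 2.35 in PI and by 2.41 in Young.

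GSTU9 and GSTU27 had lower signals. GSTU9 had 6.29, 5.68 and 6.56 in PI with Al plus Mg and 10.00, 10.35 and 9.58 with Al alone at 72 h, and fell by 3.80 ± 0.35 (SE, limma adjusted p = 3.8e-07). In Young GSTU9 had 6.61, 6.74 and 6.63 with Al plus Mg and 9.49, 9.66 and 9.29 with Al alone, a difference of −2.82 ± 0.35 (limma adjusted p = 6.5e-06). Its arrays did not overlap between treatments in either genotype. GSTU27 had 3.51, 2.92 and 4.11 in PI with Al plus Mg, 1 of them at background, and 7.86, 8.26 and 7.29 with Al alone. With that array at its bound the difference was −4.23 (limma adjusted p = 7.0e-07). In Young GSTU27 had 4.95, 5.26 and 5.58 with Al plus Mg and 7.91, 8.62 and 8.51 with Al alone, a difference of −3.09 ± 0.42 (limma adjusted p = 1.6e-05).

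**Figure D2:**
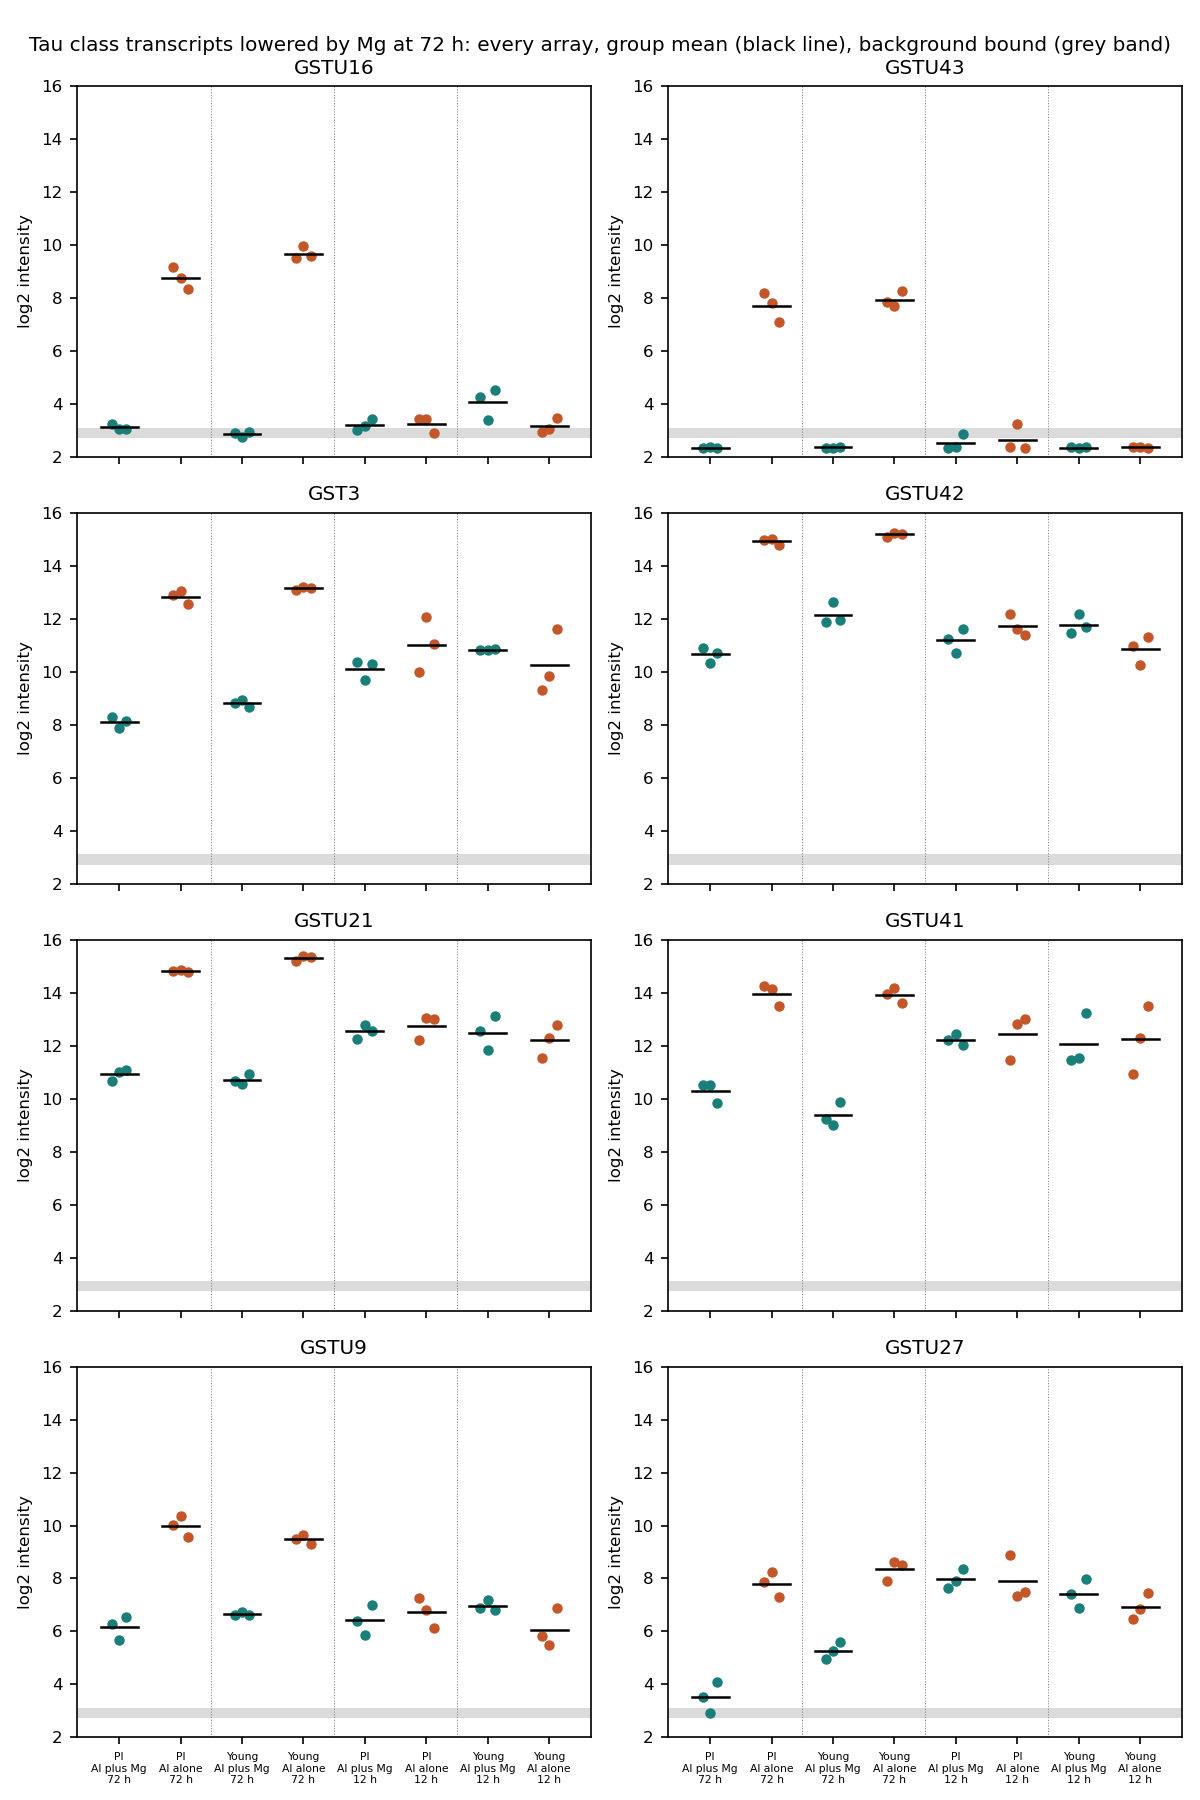
Log2 intensity (vertical axis) of 8 tau genes in each of the 24 arrays (points, green for Al plus Mg and orange for Al alone), by group (horizontal axis), with the group mean as a black line and the range of the background bounds as a grey band. In all 8 genes the 3 arrays with Al plus Mg at 72 h lie below the 3 with Al alone at 72 h in both genotypes, and GSTU43 lies in or under the grey band in every group but Al alone at 72 h, apart from 1 array of PI with Al alone at 12 h.

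Other tau genes fell in one or both genotypes. GSTU26 fell by 3.03 ± 0.25 (SE) in PI and by 2.28 ± 0.25 in Young on the log2 scale, and GSTU62 by 2.93 ± 0.63 in PI and by 4.39 ± 0.63 in Young. GSTU58, with 2.43, 3.94 and 3.78 in PI with Al plus Mg and 5.55, 6.40 and 3.92 with Al alone, overlapped between treatments in PI, with a difference of −1.71 once its array at background was set to the bound (limma adjusted p = 0.016). In Young its 3.53, 3.76 and 3.73 with Al plus Mg stayed below 5.97, 7.23 and 7.52 with Al alone, a difference of −3.24 ± 0.57 (limma adjusted p = 2.2e-04). GSTU18, GSTU44 and GSTU30 also fell in both genotypes, by 1.30, 1.23 and 0.51 in PI and by 1.67, 1.47 and 0.44 in Young. GSTU30, the brightest member, was among the least changed of those that passed.

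GSTU51 was at background in all 3 Young arrays with Al plus Mg, and its signal there was at least 3.25-fold lower than with Al alone (limma adjusted p = 0.0016). GSTU13 fell by 0.80 ± 0.24 in PI (limma adjusted p = 0.017), where its arrays with Al plus Mg, 10.70, 11.66 and 11.43, stayed below the 11.87, 12.19 and 12.14 with Al alone. In Young its difference was 0.00 ± 0.24 by this probe set, while 2 other probe sets of the gene fell by 1.19 and by 1.23 there. GSTU13 therefore has no single value in Young.

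Tau genes that did not fall were also present at good signal. GSTU28 had differences of 0.08 ± 0.24 (SE) in PI and 0.15 ± 0.24 in Young, and GSTU59 had −0.00 ± 0.27 in PI and 0.28 ± 0.27 in Young; neither passed. GSTU17 and GSTU35 rose in Young. GSTU17 had 10.97, 11.77 and 11.08 in Young with Al plus Mg and 10.58, 10.00 and 10.08 with Al alone, a difference of 1.06 ± 0.25 (limma adjusted p = 0.0023). GSTU35 had 7.38, 8.39 and 7.63 with Al plus Mg, all above the 7.26, 6.57 and 6.75 with Al alone, a difference of 0.94 ± 0.27 (limma adjusted p = 0.0096). The probe sets of this pair come from 1 design cluster of the array and may read the same transcripts. The only member called higher in PI was GSTU5, with a difference of 0.11 between arrays that were all at background, which is no measured level.

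GSTU47 could not be given 1 direction. Its probe set of highest mean, used for the counts, had 11.65, 11.51 and 10.80 in PI with Al plus Mg and 11.09, 10.76 and 10.33 with Al alone at 72 h, and did not pass. Another of its probe sets had 6.63, 3.61 and 6.10 in PI with Al plus Mg and 11.78, 11.55 and 11.43 with Al alone. In Young that probe set had 8.74, 9.39 and 8.81 with Al plus Mg and 12.51, 13.21 and 12.50 with Al alone. By it GSTU47 fell by 6.14 in PI and by 3.76 in Young, and a further probe set fell by 5.55 in PI and had a difference of −3.97 in Young. Over the family, 20 further probe sets belonged to 12 members, and in neither genotype was one called opposite to the probe set used at 72 h. Of the 20, 11 were called in PI and 14 in Young, 9 the same way in each genotype. The rest of those called belonged to members whose used probe set did not pass.

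The phi class was mixed. GSTF5 fell in both genotypes: it had 12.17, 12.11 and 12.08 in PI with Al plus Mg and 13.22, 13.38 and 13.13 with Al alone, a difference of −1.12 ± 0.16 (SE, limma adjusted p = 3.1e-05). GSTF5 in Young had 11.40, 11.66 and 11.44 with Al plus Mg and 12.88, 13.17 and 12.79 with Al alone, a difference of −1.44 ± 0.16 (limma adjusted p = 1.5e-06). GSTF7 moved the other way. It had 6.31, 7.35 and 7.20 in Young with Al plus Mg and 5.76, 3.18 and 3.90 with Al alone, a rise of 2.67 ± 0.85 (limma adjusted p = 0.018) with widely spread arrays. In PI its 4.66, 7.28 and 6.98 with Al plus Mg overlapped the 3.09, 5.76 and 5.28 with Al alone, and the difference of 1.60 ± 0.85 did not pass. GST24 did not pass in either genotype.

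The 3 lambda genes fell in PI and 2 of them fell in Young. GSTL3 fell by 1.64 ± 0.22 (SE) in PI and by 1.41 ± 0.22 in Young on the log2 scale, and GSTL7 by 1.56 ± 0.21 in PI and by 1.35 ± 0.21 in Young. Both had 12.48 or more in every array with Al alone at 72 h and 12.42 or less in every array with Al plus Mg. GSTL1 had 6.67, 5.23 and 6.72 in PI with Al plus Mg and 9.58, 9.18 and 9.21 with Al alone, a difference of −3.12 ± 0.40 (limma adjusted p = 1.1e-05). In Young GSTL1 had 5.78, 5.93 and 5.44 with Al plus Mg and 6.53, 6.33 and 6.94 with Al alone, without overlap, but the difference of −0.88 ± 0.40 did not pass (limma adjusted p = 0.090).

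The theta and zeta genes moved little. GSTT1 fell by 0.36 ± 0.11 (SE) in PI and by 0.33 ± 0.11 in Young on the log2 scale. GSTZ2 fell by 0.33 ± 0.11 in Young, with overlapping arrays, and its difference in PI was 0.17 ± 0.11. GSTZ3 passed in neither genotype.

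**Figure D3:**
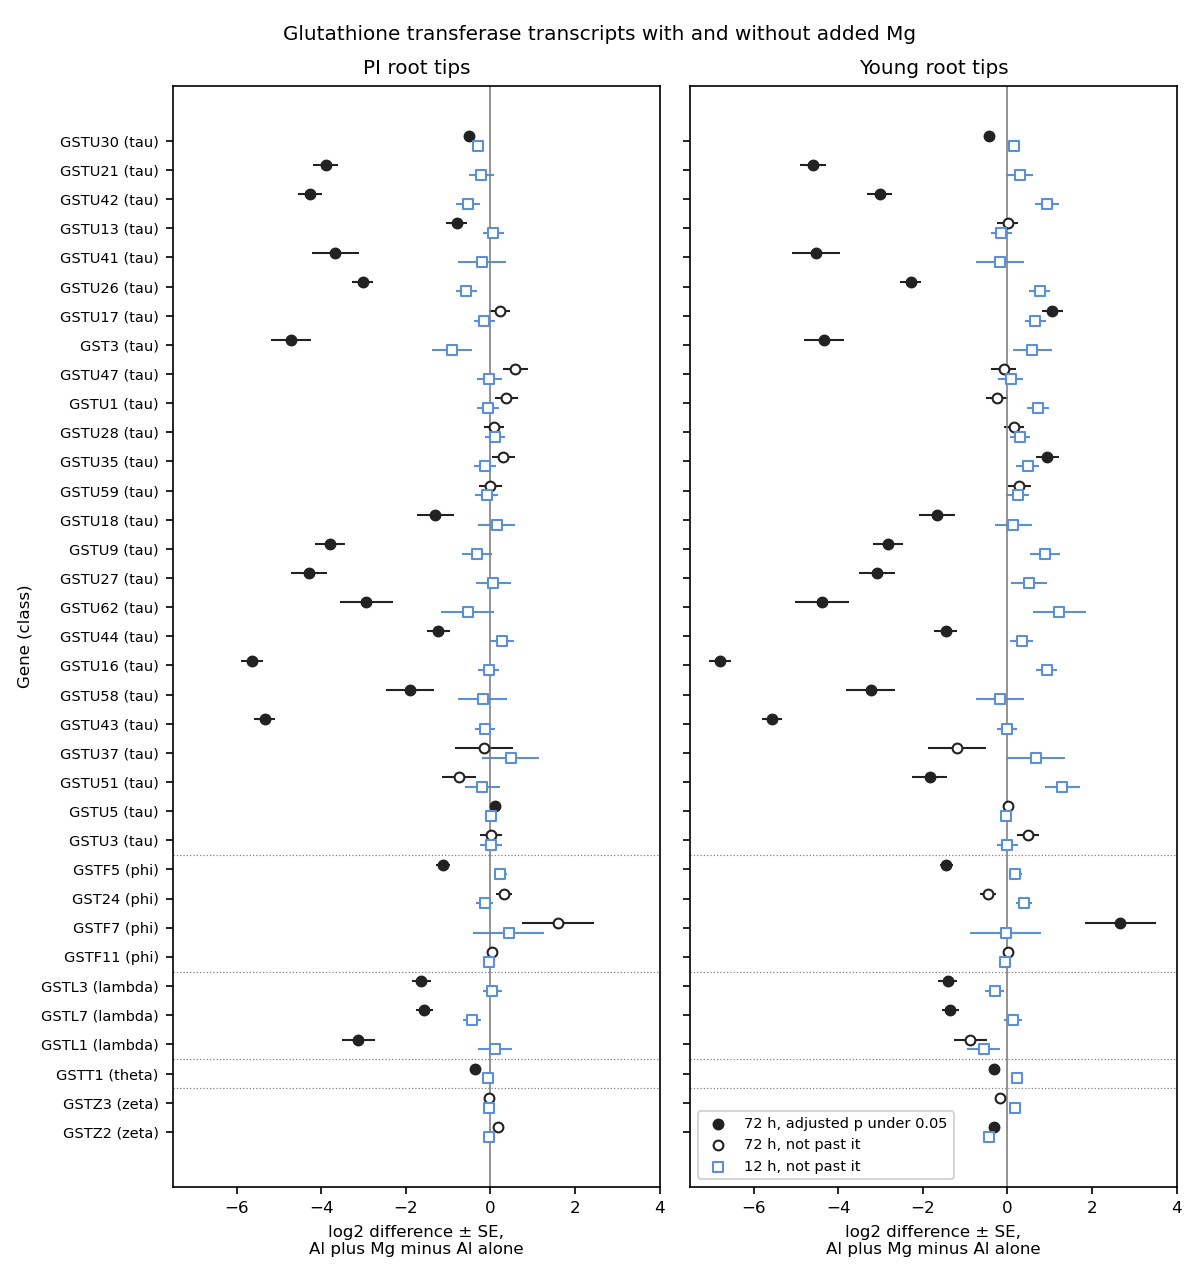
Log2 difference between Al plus Mg and Al alone (horizontal axis, fitted value ± SE) for each of the 35 members (rows, by class) in PI (left panel) and Young (right panel), with circles for 72 h, squares for 12 h, and filled symbols for a limma adjusted p under 0.05. At 72 h filled circles run from −5.64 to 0.11 in PI and from −6.80 to 2.67 in Young, while no square is filled at 12 h.

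Among the RNA quality controls on the arrays, the 3′ over 5′ ratios of P450 and Actin moved with the treatment at 72 h. The Ubiquitin and SucBP controls lay under the background bounds, so their ratios carry no level. Their 3′ ends were at 2.46 and 2.24 in PI with Al plus Mg at 72 h, and at 2.42 and 2.23 in Young. The signal of the 3′ over the 5′ end of the P450 control was 4.12 ± 0.25 in PI with Al plus Mg and 2.51 ± 0.36 in PI with Al alone (log2 ratio, SD, n = 3 each). In Young it was 3.80 ± 0.16 with Al plus Mg and 2.26 ± 0.37 with Al alone. For the Actin control it was 8.41 ± 0.17 in PI with Al plus Mg and 7.99 ± 0.03 with Al alone, and in Young 8.41 ± 0.04 with Al plus Mg and 7.88 ± 0.20 with Al alone. The ratio of the 3′ end over the middle of the P450 control was 1.73 ± 0.23 with Al plus Mg and 1.52 ± 0.12 with Al alone in PI, and 1.55 ± 0.08 with Al plus Mg and 1.37 ± 0.11 with Al alone in Young. For Actin that ratio was 1.60 ± 0.08 with Al plus Mg and 1.53 ± 0.06 with Al alone in PI, and 1.52 ± 0.09 with Al plus Mg and 1.62 ± 0.08 with Al alone in Young. At 12 h the 3′ over 5′ ratio of P450 was 2.82 with Al plus Mg and 2.95 with Al alone in PI. In Young it was 2.98 with Al plus Mg and 3.09 with Al alone at 12 h. The part of what these controls measure in the lower transferase signals was not tested.

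The array also carries a control that it names GlutTrans, with probe sets for a 3′ end, a middle and a 5′ end, which the gene table does not tie to a member. At 72 h its 3′ end was at 12.74 ± 0.58 in PI with Al plus Mg and 13.78 ± 0.14 with Al alone, and in Young at 12.36 ± 0.37 with Al plus Mg and 13.72 ± 0.06 with Al alone (SD, n = 3 each). Its 5′ end in PI was at 9.14 ± 0.32 with Al plus Mg and 11.25 ± 0.38 with Al alone, and in Young at 9.30 ± 0.34 with Al plus Mg and 11.99 ± 0.27 with Al alone. All 3 stretches were lower with Mg, and the 5′ end was lower by more than the 3′ end.

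At 12 h Mg had no called effect on the family. In PI none of the 35 members passed limma's adjusted threshold, which 0.0293% of all probe sets passed, 0.0106% higher and 0.0186% lower. There 2 members had an unadjusted p under 0.05, as did 1412 of the 37593 probe sets. In Young none passed either, where again 0.0293% of all probe sets did, 0.0213% higher and 0.00798% lower. There 8 members had an unadjusted p under 0.05, as did 6396 of the 37593 probe sets. The smallest p-values in PI belonged to GSTU30 with −0.29 ± 0.11 (SE), GSTU26 with −0.57 ± 0.25 and GSTL7 with −0.43 ± 0.21, each at a limma adjusted p of 1. In Young they belonged to GSTZ2 with −0.44 ± 0.11 (limma adjusted p = 0.14), GSTU16 with 0.92 ± 0.25 (0.14) and GSTU42 with 0.93 ± 0.29 (0.15).

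The result in Young at 12 h depended on 1 array. Without replicate 3 of Al alone, 7 members were higher with Al plus Mg and none lower, namely GSTU1, GSTU9, GSTU16, GSTU26, GSTU42, GSTU51 and GSTU62, where 8.29% of all probe sets passed. Their log2 differences then ran from 1.02 for GSTU1 to 2.08 for GSTU62. The array left out was the highest of its group in both of the following genes. GSTU62 had 7.98, 7.61 and 6.23 with Al plus Mg and 4.82, 5.56 and 7.76 with Al alone. GSTU9 had 6.87, 7.17 and 6.81 with Al plus Mg and 5.82, 5.50 and 6.87 with Al alone. Leaving out replicate 2 of Al plus Mg in place of it gave 1 member higher, GSTU16, at 1.26 (limma adjusted p = 0.045). The share of all probe sets that passed in that fit is not given here.

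The difference with Mg was larger in size at 72 h than at 12 h for many members. The test of the Mg difference at 72 h minus that at 12 h was below 0 for 14 members in PI, where 17.3% of all probe sets passed, 9.32% above 0 and 8.03% below 0. In Young it was below 0 for 20 members, where 35.2% of all probe sets passed, 20.1% above 0 and 15.0% below 0. No member passed above 0 in either genotype. GSTU16 led with a difference of differences of −5.59 ± 0.36 (SE) in PI and −7.72 ± 0.36 in Young, although some of its arrays were at background at 72 h. GSTU43 had fitted values of −5.22 ± 0.34 in PI and −5.56 ± 0.34 in Young, with most of its arrays at background. GSTU42 had −3.73 ± 0.41 in PI and −3.96 ± 0.41 in Young. GSTU21 had −3.69 ± 0.43 in PI and −4.88 ± 0.43 in Young.

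Genotype made no called difference to the effect of Mg on any member in the model used throughout, and GSTL1 passed in some others. At 72 h none of the 35 passed limma's test of the Mg difference in PI minus that in Young. Of all probe sets 1.45% passed it, 0.803% above 0 and 0.644% below 0. An unadjusted p under 0.05 was found for 8 members and for 5177 of the 37593 probe sets. GSTL1 came closest, with −2.24 ± 0.56 (SE, limma adjusted p = 0.056): its difference was −3.12 in PI and −0.88 in Young. It passed with the replicate block (limma adjusted p = 0.027), the signal filter (0.046), quantile normalization (0.042), equal medians (0.049) and an offset of 32 (0.026), where GSTU16 passed too. GSTL1 also passed when replicate 3 of PI with Al plus Mg was left out (limma adjusted p = 0.045), and GSTZ2 passed when replicate 3 of Young with Al alone was (0.034). GSTU16 had 1.16 ± 0.36 (limma adjusted p = 0.13), GSTZ2 0.50 ± 0.16 (0.16), GSTU42 −1.24 ± 0.41 (0.16) and GST24 0.78 ± 0.27 (0.19).

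At 12 h no member passed this test either, where 0.0133% of all probe sets did, 0.00532% above 0 and 0.00798% below 0. An unadjusted p under 0.05 was found for 10 members and for 6236 of the 37593 probe sets. GSTU26 had −1.34 ± 0.35 (SE, limma adjusted p = 0.10) and GSTU42 −1.47 ± 0.41 (0.11). Without replicate 3 of Young with Al alone 5 members passed below 0, GST3, GSTU9, GSTU26, GSTU42 and GSTU62. In that fit 6.95% of all probe sets passed, 840 above 0 and 1774 below 0.

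Between the genotypes themselves the signals of a few transferases differed steadily. GSTU28, read by 1 probe set, was lower in PI in all 4 combinations of treatment and time, which share no arrays. With Al plus Mg at 72 h it had 10.14, 9.35 and 9.60 in PI and 11.42, 11.56 and 11.57 in Young, and with Al alone at 72 h 9.37, 9.78 and 9.70 in PI and 11.37, 11.52 and 11.21 in Young. The 12 h arrays with Al plus Mg had 8.98, 9.32 and 9.20 in PI and 11.10, 11.03 and 10.67 in Young, and with Al alone at 12 h 9.36, 8.43 and 9.40 in PI and 10.47, 10.47 and 10.97 in Young. No PI array reached a Young array in any of these. The differences were −1.82, −1.75, −1.77 and −1.57 in this order (SE 0.24 each), with limma adjusted p-values of 9.3e-05, 9.7e-05, 1.3e-04 and 5.7e-04. Whether the probes bind equally well in both genotypes was not tested.

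GSTF5, by the probe set used, was higher in PI in 3 of the 4 combinations. With Al plus Mg it was higher by 0.62 ± 0.16 (SE, limma adjusted p = 0.018) at 72 h and by 0.75 ± 0.16 (0.0049) at 12 h. With Al alone at 12 h it was higher by 0.71 ± 0.16 (0.014). Another of its probe sets had means of 6.37 in PI and 5.41 in Young with Al plus Mg at 72 h. A further one ran the other way there, with 5.01 in PI and 5.61 in Young. GSTU30 was lower in PI in 3 of the 4 combinations, by 0.59 ± 0.11 with Al plus Mg at 72 h (limma adjusted p = 0.0025), by 0.51 ± 0.11 with Al alone at 72 h (0.0055) and by 0.47 ± 0.11 with Al plus Mg at 12 h (0.0097). GSTL1 with Al alone at 72 h stood out, with 9.58, 9.18 and 9.21 in PI and 6.53, 6.33 and 6.94 in Young. The difference of 2.73 ± 0.40 (limma adjusted p = 2.0e-04) made it the only member called higher in PI in that combination.

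**Figure D4:**
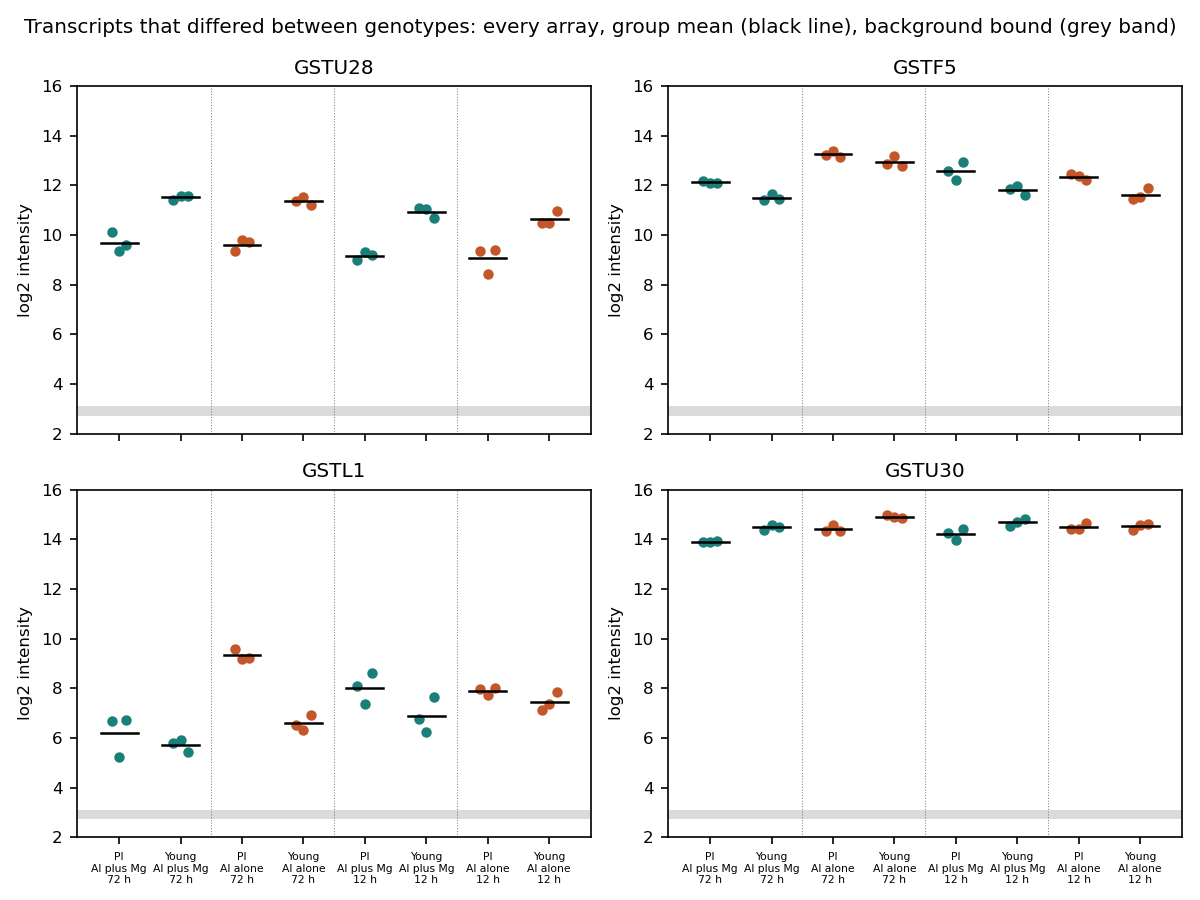
Log2 intensity (vertical axis) of GSTU28, GSTF5, GSTL1 and GSTU30 in each of the 24 arrays (points, green for Al plus Mg and orange for Al alone), PI left of Young within each treatment and time (horizontal axis), with the group mean as a black line and the background bounds as a grey band. GSTU28 is lower in PI in every pair of groups, and GSTL1 is high in PI with Al alone at 72 h, where its mean is 9.33 against 6.60 in Young.

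With Al plus Mg at 72 h, 1 member was higher and 5 lower in PI than in Young, where 9.83% of all probe sets passed, 5.12% higher and 4.71% lower. Beside GSTF5, GSTU28 and GSTU30 these were GSTU42 with −1.50 ± 0.29 (SE, limma adjusted p = 0.0029), GSTL3 with −1.01 ± 0.22 (0.0076) and GSTU27, which had 1 PI array at background and a difference of −1.69 with that array at its bound (0.013). With Al alone at 72 h, 1 was higher and 7 lower, where 12.6% of all probe sets passed, 6.24% higher and 6.37% lower. Leaving out replicate 2 of Young there left 1 member higher and 2 lower. No count over all probe sets is given beside this one, so the drop is not read as particular to the family. Leaving out replicate 1 or 2 of PI left 1 member higher and 4 lower. Over all probe sets, 2344 higher and 2393 lower became 1893 and 1801 without PI replicate 1. They became 1822 and 1645 without PI replicate 2. A fit on these arrays alone left 1 member higher and 3 lower, and 659 higher and 798 lower over all probe sets. GSTU16 was lower by 0.92 ± 0.25 (limma adjusted p = 0.023) and GSTU51, with 2 of 3 PI arrays at background and overlapping genotypes, had a difference of −1.42 with those at their bound (0.027). GSTL3, GST24 and GSTZ2 were the other genes lower in PI there, at −0.78, −0.70 and −0.39, beside GSTU28 and GSTU30. Of 20 other probe sets of members, 8 were called with Al plus Mg at 72 h and 5 with Al alone at 72 h. In each comparison 3 were called the same way as the probe set used and 0 the opposite way. By another probe set GSTU47 had means of 5.45 in PI and 8.98 in Young with Al plus Mg at 72 h. The one used gave a difference of 0.65 there and was not called.

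At 12 h with Al plus Mg, 1 was higher and 5 lower in PI, where 13.6% of all probe sets passed, 6.02% higher and 7.54% lower. GSTU51 was at background in PI, with 2.52, 2.61 and 2.54, against 4.93, 4.02 and 4.34 in Young, at least 2.96-fold lower (limma adjusted p = 0.0068). GSTU1 was lower by 0.99 ± 0.26 (SE, 0.019). A fit on the arrays of this comparison alone left 2 members lower. Over all probe sets it left 517 higher and 602 lower, in place of 2263 and 2836. With Al alone at 12 h, GSTF5 was higher and GSTU28 lower in PI, where 4.21% of all probe sets passed, 2.10% higher and 2.11% lower. A fit on these arrays alone left no member. Over all probe sets it left 200 higher and 165 lower, in place of 791 and 793. Each of 3 single arrays, PI replicate 1 and Young replicates 1 and 2, took away the call of GSTF5 when left out. Without Young replicate 3 there were 4 members higher and 1 lower, where 5.34% of all probe sets passed.

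Most transferases called between 72 and 12 h were higher at 72 h with Al alone and lower at 72 h with Al plus Mg. With Al alone, 15 members were higher and 3 lower at 72 h than at 12 h in PI, where 39.2% of all probe sets passed, 15.7% higher and 23.5% lower. In Young 23 were higher and 2 lower with Al alone, where 49.7% passed, 20.7% higher and 29.0% lower. Under Al plus Mg, 5 were higher and 13 lower at 72 h in PI, where 44.1% of all probe sets passed, 21.7% higher and 22.4% lower. Without replicate 3 of PI with Al plus Mg at 12 h, 2 members were higher and 9 lower. Over all probe sets 7131 were then higher and 7799 lower, in place of 8154 and 8430. In Young 2 members were higher and 12 lower with Al plus Mg, where 31.1% of all probe sets passed, 15.5% higher and 15.6% lower. In this last comparison same-numbered arrays deviated together, and with the replicate number as a block GSTU35 was no longer lower (limma adjusted p = 0.053). These comparisons use the same 72 h arrays as the Mg comparisons at 72 h, so their values stand side by side and are not separate evidence.

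With Al alone, GSTU16 had 9.18, 8.73 and 8.33 in PI at 72 h and 3.42, 3.41 and 2.91 at 12 h, a difference of 5.50 ± 0.25 (SE, limma adjusted p = 1.4e-10). In Young it had 9.49, 9.94 and 9.57 at 72 h and 2.94, 3.06 and 3.45 at 12 h, a difference of 6.52 ± 0.25 (6.5e-12). GSTU43 in Young was at background at 12 h, with 2.36, 2.36 and 2.35, and was at least 32.8-fold higher at 72 h (limma adjusted p = 3.1e-11). In PI 2 of its 3 arrays at 12 h were at background, and the difference was 4.75 with those at their bound. GSTU42 was higher at 72 h by 3.19 ± 0.29 in PI and by 4.34 ± 0.29 in Young, and GSTU9 by 3.25 ± 0.35 in PI and by 3.42 ± 0.35 in Young.

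GSTU17 and GSTU35 ran against this with Al alone. GSTU17 was lower at 72 h by 1.28 ± 0.25 (SE, limma adjusted p = 6.1e-04) in PI and by 1.24 ± 0.25 (4.7e-04) in Young, and GSTU35 by 1.16 ± 0.27 (0.0025) in PI and by 1.22 ± 0.27 (0.0011) in Young. GSTU18 was lower by 1.51 ± 0.43 (limma adjusted p = 0.010) in PI.

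The falls with Al plus Mg were led by other genes. GSTU27 in PI had 3.51, 2.92 and 4.11 at 72 h and 7.64, 7.91 and 8.35 at 12 h, a difference of −4.39 with its array at background set to its bound (limma adjusted p = 4.9e-07). GSTU18 in PI had 5.37, 5.79 and 5.75 at 72 h and 8.33, 8.73 and 8.73 at 12 h, a difference of −2.96 ± 0.43 (SE, 3.9e-05). In Young GSTU62 had 4.46, 4.38 and 2.90 at 72 h and 7.98, 7.61 and 6.23 at 12 h, a difference of −3.36 ± 0.63 (limma adjusted p = 6.6e-04). GST3 was 4.01-fold lower at 72 h in PI (limma adjusted p = 0.0022) and 4.06-fold lower in Young (0.0032), and GSTU41 had differences of −1.93 ± 0.56 in PI and −2.70 ± 0.56 in Young.

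A few members rose with time under Al plus Mg. GST24 was higher at 72 h by 1.30 ± 0.19 (SE, limma adjusted p = 4.1e-05) in PI and by 0.87 ± 0.19 (0.0023) in Young, and GSTU59 by 0.84 ± 0.27 (0.018) in PI and by 1.53 ± 0.27 (4.3e-04) in Young. In PI GSTU47, by the probe set used, rose by 1.02 ± 0.29 (0.0081) and GSTU1 by 0.73 ± 0.26 (0.031).

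Set side by side within a genotype, the arrays show which of the 4 groups stood apart. In PI, 12 members had all 3 arrays with Al alone at 72 h above all 9 other PI arrays, as did 7.64% of all probe sets, and in Young 16 had all 3 above the 9 other Young arrays, as did 11.0% of all probe sets. In PI 12 members had all 3 arrays with Al plus Mg at 72 h below all 9 others, as did 7.12% of all probe sets, and in Young 8 did, as did 6.37% of all probe sets. GST3, GSTU21 and GSTU41 met both conditions in both genotypes, highest in Al alone at 72 h and lowest in Al plus Mg at 72 h. GSTU16, GSTU43, GSTU42, GSTU9, GSTL3 and GSTL7 met the first in both genotypes and not the second in either, with arrays at 12 h as low as some with Al plus Mg at 72 h. GSTU18, GSTU27 and GSTU62 met the second in both genotypes and not the first in either. GSTU51 is counted in the second too, but its arrays were at background there, and the order of such values carries no level.

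Some members that lie near each other in the assembly had Mg differences of different sizes. Of the 65 genes, runs of neighbours with at most 12 other genes between them held 2 to 9, and 7 such runs held more than 1 member. The differences that follow are fitted ones, with arrays at background left at their measured values. In the run of GSTU16, GSTU17 and GSTU18 PI had Mg differences of −5.64, 0.22 and −1.30 at 72 h, and Young had −6.80, 1.06 and −1.67. In the run of 9 that holds GSTU26, GSTU27, GSTU28 and GSTU30 PI had −3.03, −4.29, 0.08 and −0.51, and Young had −2.28, −3.09, 0.15 and −0.44. In the run of GSTU47, GSTU51 and GST3 PI had 0.59, −0.75 and −4.72, and Young had −0.09, −1.84 and −4.34, where GSTU47 has the conflicting probe sets and GSTU51 was at background with Mg. GSTU58 and GSTU59 had −1.91 and −0.00 in PI and −3.24 and 0.28 in Young. GSTU37 and GSTU41 had −0.15 and −3.67 in PI and −1.19 and −4.53 in Young. GSTZ2 and GSTZ3 lay closer together, with 0.17 and −0.03 in PI and −0.33 and −0.17 in Young. GSTU1 and GSTU3 had 0.38 and 0.02 in PI and −0.24 and 0.49 in Young, with GSTU3 at background in 23 arrays.

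**Figure D5:**
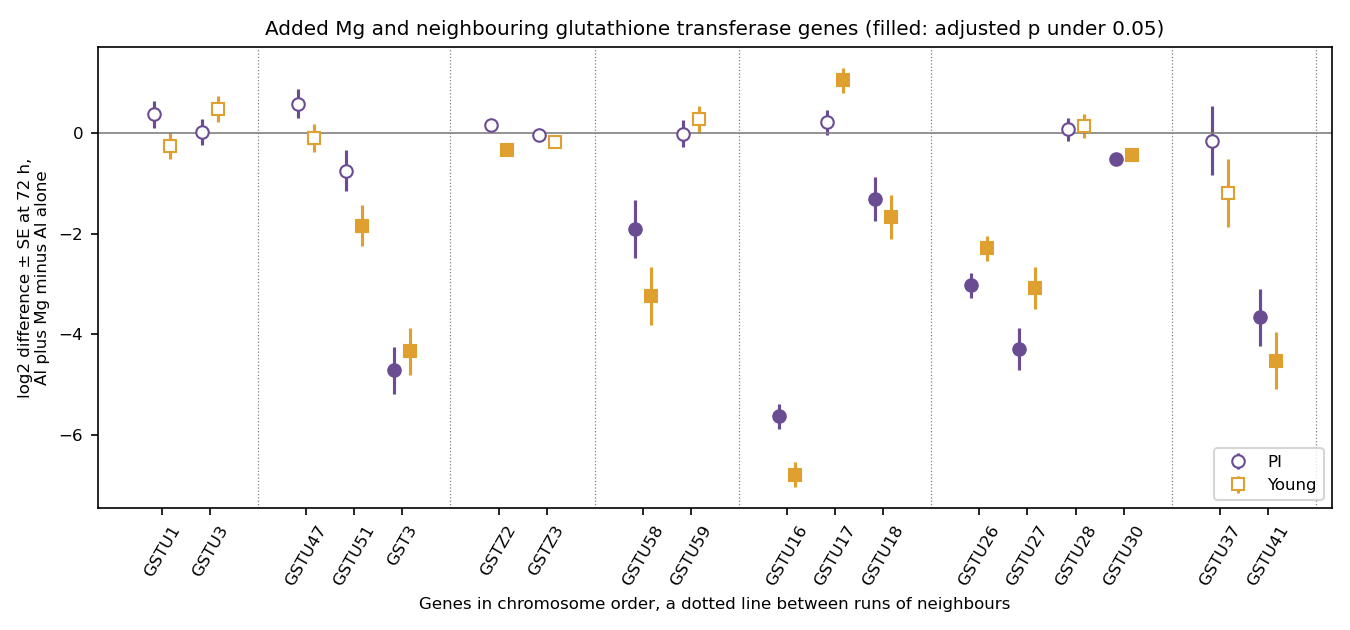
Log2 difference between Al plus Mg and Al alone at 72 h (vertical axis, fitted value ± SE) for members in runs of neighbouring genes (horizontal axis, dotted lines between runs), with circles for PI, squares for Young and filled symbols for a limma adjusted p under 0.05. Within a run strongly lowered genes such as GSTU16, at −5.64 in PI, lie beside GSTU17 at 0.22.

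A pair of genes whose symbols begin with GST but hold no number lay outside the rule. GSTa, whose synonym is GSTU48, was lower with Al plus Mg than with Al alone at 72 h by 1.15 ± 0.35 (SE, limma adjusted p = 0.017) in PI and by 1.47 ± 0.35 (0.0026) in Young. GSTIR has the synonym GmTIR and no GST synonym, so nothing given here beyond its symbol ties it to the transferases. By 1 of its probe sets GSTIR was lower by 0.83 ± 0.26 in PI (limma adjusted p = 0.021) and by 0.77 ± 0.26 in Young (0.026).

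Genes that make, recycle or use glutathione were called in both directions with Mg at 72 h. Among 15 genes of glutathione synthesis, recycling and glutathione-dependent glyoxalases, 4 were higher and 1 lower with Al plus Mg at 72 h in PI, and 6 were higher and 2 lower in Young, beside 20.7% higher and 13.0% lower over all probe sets in PI and 23.1% and 16.3% in Young, with medians of 0.23 in PI and 0.25 in Young. At 12 h none passed limma's adjusted threshold in either genotype. An unadjusted p under 0.05 was found for 2 in PI and 4 in Young, beside 1412 and 6396 of the 37593 probe sets. The largest fall at 72 h was that of GLYI-19, a glyoxalase I gene by its name, an enzyme type that acts on the adduct of methylglyoxal and glutathione. It had 6.86, 6.29 and 7.84 in PI with Al plus Mg and 10.66, 10.20 and 9.78 with Al alone at 72 h, a difference of −3.22 ± 0.50 (SE, limma adjusted p = 8.5e-05). In Young GLYI-19 had 6.04, 5.28 and 6.03 with Al plus Mg and 11.03, 11.13 and 10.84 with Al alone, a difference of −5.21 ± 0.50 (3.8e-07). Its arrays did not overlap between treatments in either genotype. GLXI rose by 0.63 ± 0.13 in PI and by 0.91 ± 0.13 in Young. The homoglutathione synthetase gene HGS had 0.15 ± 0.07 in PI, which did not pass, and rose by 0.24 ± 0.07 in Young (limma adjusted p = 0.0099).

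Among 15 genes for enzymes of hydrogen peroxide and superoxide and for alternative oxidases, 1 was higher and 5 lower with Al plus Mg at 72 h in PI, and 2 were higher and 6 lower in Young, set against the same shares over all probe sets, 20.7% and 13.0% in PI and 23.1% and 16.3% in Young, with medians of −0.01 in PI and −0.11 in Young. AOX1, a mitochondrial alternative oxidase gene, had 5.99, 3.79 and 5.45 in PI with Al plus Mg and 11.41, 10.93 and 10.85 with Al alone. In Young AOX1 had 3.81, 3.43 and 3.82 with Al plus Mg and 11.95, 12.23 and 12.77 with Al alone, and it fell by 5.99 ± 0.67 (SE, limma adjusted p = 3.3e-06) in PI and by 8.63 ± 0.67 (3.8e-08) in Young. AOX2 fell by 1.54 ± 0.20 in PI and by 1.50 ± 0.20 in Young. The ascorbate peroxidase gene APX1, which removes hydrogen peroxide with ascorbate, had differences of −0.02 ± 0.07 in PI and 0.03 ± 0.07 in Young, and neither passed. At 12 h no gene of this list passed limma's adjusted threshold in either genotype. An unadjusted p under 0.05 was found for none in PI and 2 in Young, beside 1412 and 6396 of the 37593 probe sets.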

How the data were processed

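Root-tip RNA of 8 groups was measured on Affymetrix soybean arrays, 3 per group and 24 in all. The deposited values are linear intensities, 1 per probe set and array; how the authors corrected background, summarised probes and normalised is not given in the sources used here. Values under 1 were raised to 1 and log2 was taken. The model in limma 3.58.1 (R 4.3.3) held 8 group means, no covariate and 16 contrasts over 37593 soybean probe sets, with Benjamini-Hochberg adjustment over all probe sets of a contrast and a threshold of 0.05. The limma fit was also run on simulated data with known changes planted in few probe sets, unlike the wide changes at 72 h. No result here rests on it.

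Genes were named through the supplied probe table and the RefSeq gene table of Glycine_max_v4.0, used only for names and gene order. A gene with several probe sets was represented by that of highest mean, and 4 probe sets tied to several genes were dropped. Arrays give no read depth, so signal over background and the number of arrays limit the precision. All tests used the measured values. Only for the differences described so was a level at background set to its array's bound, and a group wholly at background gives only an "at least" fold. The SEs and adjusted p-values printed beside such values belong to the fit on measured values. The members and gene lists were chosen with earlier results of these data known. Genes named in a comparison were those with the largest called falls, all called rises, or the smallest p-values, as the comparison required; other genes were named after their values were seen. Alternatives were other scalings, a signal filter, an offset, a robust fit, each comparison fitted alone, a replicate block, another probe set per gene and each array left out. No sequences are shown.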

Additional observations from a re-analysis of the deposited data

Results flagged for a closer look

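The effect of Mg differed between 72 and 12 h, by the interaction term of limma, for 14 members in PI and 20 in Young, all below 0. Of all probe sets 17.3% passed in PI, 8.03% below 0, and 35.2% in Young, 15.0% below 0. The 5 members with the smallest p-values in PI were GSTU16 with −5.59, GSTU43 with −5.22, GSTU42 with −3.73, GSTU21 with −3.69 and GSTU27 with −4.36 (log2 difference at 72 h minus that at 12 h). In Young they were GSTU16 with −7.72, GSTU43 with −5.56, GSTU21 with −4.88, GSTU42 with −3.96 and GSTU26 with −3.05. GSTU43 was at background in all arrays with Al plus Mg and in all but 1 of those with Al alone at 12 h, so its values are fitted ones and no bound.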

How the results depend on the processing

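Of 94 values of single genes, recomputed under 1365 alternatives in all, 1278 kept their direction and side of the threshold, 67 no longer passed, 13 newly passed and 7 changed sign. All 7 sign changes came from taking the probe set of lowest mean: GSTU9 at 0.049 for Mg in PI and 0.019 for Mg in Young at 72 h, −0.0011 and −0.062 for 72 minus 12 h with Al alone in PI and in Young; GSTF5 for PI minus Young at −0.60 with Al plus Mg at 72 h and −0.083 at 12 h; and GSTU18 at 0.12 for 72 minus 12 h in PI with Al plus Mg. Those probe sets of GSTU9 and GSTU18 were each at background in 23 of 24 arrays, so these 5 values measure no change of sign. The number of members whose Mg effect differed by genotype at 72 h was 0 in the main fit. It became 1 with the signal filter, quantile normalization, equal medians and the replicate block, and 2 with an offset of 32. Over all probe sets, 302 above 0 and 242 below 0 became 257 and 227 with the signal filter. They became 310 and 216 with quantile normalization and 329 and 202 with equal medians. With the replicate block they were 237 and 189, and with the offset 333 and 233. Fitted on their own arrays, the PI minus Young comparisons called 4 with Al alone at 72 h, 2 with Al plus Mg at 12 h and 0 with Al alone at 12 h, where fewer arrays estimate the spread. The calls over all probe sets were also fewer in these fits. With each array left out in turn, the counts ran from 0 to 1 for Mg by genotype at 72 h and 0 to 5 at 12 h, 0 to 7 for Mg in Young at 12 h, 3 to 10 for PI minus Young with Al alone at 72 h and 1 to 5 at 12 h, and 11 to 16 for 72 minus 12 h in PI with Al plus Mg. These ranges count members only, and calls over all probe sets moved too when arrays were left out. For Mg in Young at 12 h they went from 0.0293% to 8.29% without replicate 3 of Al alone. Same-numbered arrays of different groups had deviations correlated at −0.43 to 0.41, and an array matched its own number best in 11 of 36 cases. In 72 minus 12 h of Young with Al plus Mg all 3 pairs did, at 0.25, 0.15 and 0.22; in no other comparison were all 3 above 0.1, and there the numbers share only a label. The replicate block changed no other count by over 1.5 times. The causes of these changes were not tested. All groups held Al, the Mg dose and the normalization are unknown, and values near background limit GSTU16, GSTU43, GSTU51 and GSTU58.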
